A study of Mus musculus with 4 samples.

Results

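Agt, Ace and Bdkrb2 are 3 genes of the linked angiotensin and kinin systems, and they were taken by name from the 3891 genes of a single cell expression table of mouse small intestinal fibroblasts. They were selected on their measured levels, which had been seen to differ between the fibroblast groups of this table, so those levels are given as a description, without tests. The cells had been sorted for PDPN (gp38), a broad fibroblast surface marker, and against CD45, EpCAM and CD31, from the small intestine of male wild type C57Bl/6 mice that the labels give as 8 weeks old. There was no treatment, and no second genotype or age. The 16891 cells profiled with 10X Genomics came from 2 libraries (2547 and 14344 cells), and the library is the replicate. How many mice gave each library is not stated, so spread between libraries may be technical.

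Angiotensinogen, the protein of Agt, is the substrate from which renin cuts angiotensin I. Angiotensin-converting enzyme, the protein of Ace, turns that peptide into the vasoconstrictor angiotensin II, and the same enzyme degrades bradykinin, a peptide that widens vessels and makes them leak. Bdkrb2 encodes the constitutive bradykinin receptor. Enzyme and receptor therefore meet in 1 pathway, while substrate and enzyme meet in the other.

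The cells were put in groups by the UMIs of a few genes. Cells with Sox6 were called subepithelial (285 in library 1 and 2699 in library 2). They were split by Adamts18, which marks villus tip telocytes (VTTs), into 18 and 178 positive cells, and the remaining cells were split by the Wnt inhibitor gene Wif1 into 114 and 817 positive and 153 and 1704 negative cells. Cells without Sox6 but with 3 or more of Inmt, Penk, Vit and Scara5 (331 and 1107) were followed by cells with 3 or more of Chodl, Dner, Thbs2 and Ptn, the Fibin type (100 and 697). Of the remaining cells, those with Grem1 were called crypt (1021 and 4837), and after them those with Lpl were called villus (611 and 3699). No gate took 199 and 1305 cells. The median depth was 8757 UMIs per cell in library 1 and 6874 in library 2, and over the 5 gates it ran from 7939 (villus) to 11064 (subepithelial) in library 1 and from 5982 to 8299 in library 2, for the same gates. The libraries shared 7 cell barcodes.

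Markers that did not enter the gates were read to see what the groups held. A list of 9 subepithelial markers, among them Pdgfra and Tnc, summed to 136 and 119 UMIs per 10,000 in the Sox6 gate and to at most 51.3 and 50.3 in the other 4 gates. Of 6 VTT markers other than Adamts18, 5 were found in the Adamts18-positive cells, and Lgr5 was at 0 in both libraries. The Inmt/Penk/Vit/Scara5 gate corresponds to the cells named mesothelial-like in the study, and Wt1 was found in it. Its cells lacked Msln and Lrrn4 in both libraries, 2 defining genes of true mesothelium, and the list of 6 crypt markers reached 66.8 and 55.5 UMIs per 10,000 there against 56.4 and 52.6 in the crypt gate. These cells are therefore called by their gate genes below.

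The sequence before the start site of each gene is shown first, because Agt and Bdkrb2 had their highest levels in the same groups and Ace had not. All 3 genes matched the RefSeq promoter table (GRCm38.p6). Printed are the 150 bases before the start in the direction of transcription, and capitals mark the matches of 3 motifs searched on both strands. These were the letters TATAAA of the classic core promoter element, the letters GGGCGG to which Sp1 and its relatives bind, and the letters ACAAT from the core of sites of SOX factors.
Agt, chr8:124569707-124569856, minus strand: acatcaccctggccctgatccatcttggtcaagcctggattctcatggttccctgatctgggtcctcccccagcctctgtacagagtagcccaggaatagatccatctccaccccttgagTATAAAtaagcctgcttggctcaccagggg
Ace, chr11:105967798-105967947, plus strand: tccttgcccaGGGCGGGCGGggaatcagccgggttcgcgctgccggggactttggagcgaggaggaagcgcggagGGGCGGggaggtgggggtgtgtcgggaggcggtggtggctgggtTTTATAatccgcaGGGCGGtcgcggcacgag
Bdkrb2, chr12:105563022-105563171, plus strand: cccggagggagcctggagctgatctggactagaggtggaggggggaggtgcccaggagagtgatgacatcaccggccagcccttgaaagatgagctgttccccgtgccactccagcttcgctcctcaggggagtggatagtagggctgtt
The window of Agt held 1 TATAAA, which began 30 bases before the start. That of Ace held 4 GGGCGG, 2 of them overlapping, and 1 TATAAA on the opposite strand, 31 bases before the start. That of Bdkrb2 held none of the 3 motifs, and ACAAT was in none of the 3 windows. Of 32851 mouse promoters, 7.57% held TATAAA, 28.6% GGGCGG and 17.4% ACAAT in this window. The GC content was 54.7% for Agt, 71.3% for Ace and 62% for Bdkrb2, beside a median of 54.0%. A match is a description and not a site, and these letters missing from a window say nothing about a factor. RefSeq lists a further start site inside Ace, which is not told apart from the first by counts per gene.

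Agt lies on chromosome 8 of GRCm38 (124556534 to 124569706, minus strand) and was found at its highest level, among the fibroblast groups, in the Adamts18-positive subepithelial cells. They held 3.67 and 2.99 Agt UMIs per 10,000 UMIs in libraries 1 and 2, and 17 of 18 and 144 of 178 cells had at least 1 Agt UMI (94.4% and 80.9%, exact 95% intervals 72.7% to 99.9% and 74.3% to 86.4%). Next came villus cells with 1.37 and 0.789, and Sox6 cells without Wif1 and Adamts18 with 1.09 and 0.910 Agt UMIs per 10,000. The latter groups overlapped, and their difference was smaller than the spread between libraries. The Adamts18-positive cells stood above both in each library.

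In the Wif1-positive subepithelial cells without Adamts18 the Agt level was 0.143 and 0.217 UMIs per 10,000, and Agt was found in 7.02% and 14.2% of the cells. Crypt cells held 0.0955 and 0.105, and Inmt/Penk/Vit/Scara5 cells 0.0363 and 0.0641 Agt UMIs per 10,000. In the Fibin type the level was 0 of 100 cells in library 1, which allows a share of up to 3%, and 0.0454 UMIs per 10,000 in library 2. Of 65 immune-like cells of library 2, 5 had an Agt UMI (7.69%, interval 2.54% to 17.0%, median 4925 UMIs). Of 120 glia-like cells of that library 5 had one (4.17%, interval 1.37% to 9.46%, median 5131 UMIs). After thinning to 2000 UMIs it was 0 of 59 immune-like and 3 of 102 glia-like cells. Whether such cells make Agt themselves was not tested. The shares of 4.67% in crypt cells (median 7055 UMIs), 3.70% in Inmt/Penk/Vit/Scara5 cells and 2.58% in the Fibin type of library 2 lie within both intervals. That of the Wif1-positive cells (median 9682 UMIs) lies within the immune-like interval and above the glia-like one. These reference cells are few and were called by markers over all cells: 42 of the 65 immune-like cells lay in no gate, and 62 of the 120 glia-like cells lay in the Sox6 gate. They are no independent measure of free RNA, and shares within their intervals are neither read as expression nor as its absence. In crypt cells of library 2, 169 of the 226 cells with Agt had 1 Agt UMI and 34 had 3 or more, up to 14.

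Within the Sox6 cells the level of Agt thus moved with both split genes. Against the Adamts18-negative cells (0.648 and 0.655) the Adamts18-positive cells held 5.67-fold and 4.56-fold more Agt per UMI, a mean log2 ratio of 2.35 ± 0.22 (SD, n = 2 libraries). Wif1-negative Sox6 cells (1.4 and 1.13, VTTs included) held 9.78-fold and 4.86-fold more than Wif1-positive ones. Subepithelial cells as a whole held 8.93-fold and 7.77-fold more Agt than crypt cells. Against villus cells the ratio was 0.623 in library 1 and 1.04 in library 2, so no order of these groups held in both libraries. After every cell was thinned to 2000 UMIs, Agt was still found in 61.1% and 42.9% of Adamts18-positive cells, 15.9% and 14.4% of the Wif1- and Adamts18-negative cells, 15.9% and 10.8% of villus cells and 2.63% and 3.94% of the Wif1-positive cells without Adamts18.

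The villus level of Agt was not spread evenly over the cells of that gate. Only 28.2% and 22.1% of villus cells had an Agt UMI, with a mean of 3.94 and 2.24 UMIs per such cell and up to 27 and 30 in 1 cell. Villus cells were divided by how many of 7 markers of Wif1-negative subepithelial cells (Ednrb, Postn, Smoc1, Lama5, Foxl1, Wnt4 and Emid1, here called subepithelial B markers) they carried. With 0 markers the Agt level was 0.292 and 0.297, with 1 marker 1.09 and 0.579, with 2 markers 3.60 and 1.55, and with 3 or more 5.44 and 2.96 UMIs per 10,000. The level rose at every step in both libraries, over 307, 206, 62 and 36 cells in library 1 and 1619, 1368, 459 and 253 cells in library 2. The median depth also rose along these steps, from 6723 to 10485 and from 5196 to 6933 UMIs, and in cells thinned to 2000 UMIs Agt was found in 3.75%, 17.6%, 45.2% and 55.6% of library 1 and in 5.79%, 8.45%, 22.0% and 35.2% of library 2. Without the villus cells that carry 2 or more of these markers, an alternative chosen after the data were seen, the log2 ratio of Agt in subepithelial over villus cells moved from -0.32 ± 0.52 to 0.64 ± 0.37. The cells were left out of the villus side only, and they held the most Agt. The rise thus follows from the steps above and is no separate result.

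Of the 7 subepithelial B markers, 6 were found more often in villus cells with Agt than in those without, in both libraries. Wnt4, a Wnt ligand gene, was found in 62.8% and 54.7% of villus cells with Agt and in 6.83% and 16.1% of those without. Emid1 was found in 37.8% and 31.2% against 4.10% and 8.33%, and Foxl1, a transcription factor of telocytes, in 14.5% and 12.6% against 2.28% and 2.05%. The exception was Postn, found in 29.7% and 29.1% against 27.1% and 31.9%. Villus cells with Agt were deeper (median 8816 and 6676 UMIs against 7416 and 5728), and these marker shares were not compared at equal depth. Of the listed pathway genes, Agtr1a, Anpep, Ece1, Prcp and Thop1 were also found more often with Agt in both libraries. Bdkrb1, Enpep and Dpp4 were found less often. The share over all genes was not computed, so the count of 6 is not shown to be particular to subepithelial B markers. Smooth muscle genes also moved with Agt in this gate. Acta2, smooth muscle actin, was found in 64.5% and 60.7% against 31.0% and 37.3%, and Myh11, smooth muscle myosin, in 22.1% and 19.95% against 4.78% and 7.46%. The level of Myh11 was 2.19 and 1.90 UMIs per 10,000 in villus cells with Agt and 0.123 and 0.236 in those without. With smooth muscle-like cells and cells of other types left out, the log2 ratio of Agt in subepithelial over villus cells was -0.25, beside -0.32 with them. Adamdec1, a villus fibroblast marker, was near complete in both classes (100% and 100% against 96.1% and 98.5%), while Pi16 was rarer in the cells with Agt (0.581% and 3.06% against 13.2% and 9.58%). In the Sox6 cells without Wif1 and Adamts18, Agt went with the same markers: Foxl1 was found in 45.3% and 37.0% of cells with Agt and 13.5% and 18.5% of those without, and the laminin gene Lama5 in 25.0% and 15.1% against 6.74% and 4.72%.

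**Figure D1:**
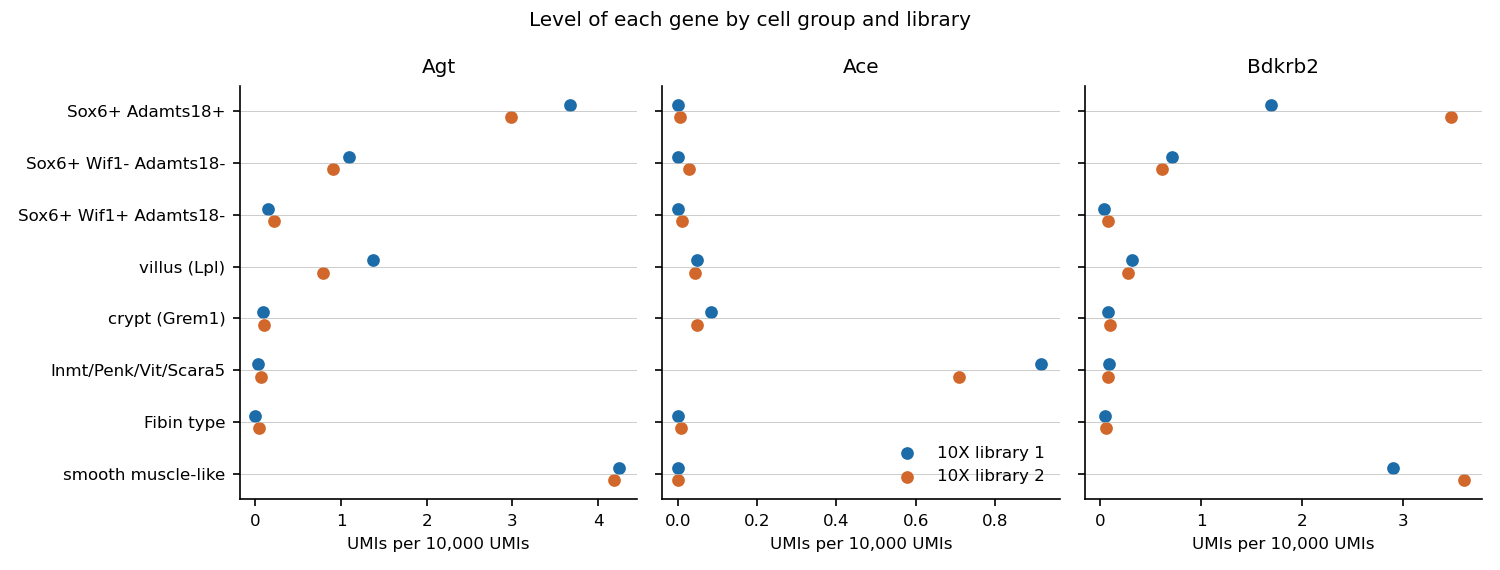
Level of Agt, Ace and Bdkrb2 (x axis, UMIs per 10,000 UMIs, a separate scale for each gene) in 7 disjoint fibroblast groups and in smooth muscle-like cells (y axis), with 1 point per 10X library. Agt and Bdkrb2 are highest in Adamts18-positive Sox6 cells and smooth muscle-like cells, whereas Ace is high only in the Inmt/Penk/Vit/Scara5 cells (0.916 and 0.708) among the groups plotted.

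Ace lies on chromosome 11 of GRCm38 (105967945 to 105989964, plus strand), where the antisense gene Gm11651 overlaps it, and showed another pattern. The Inmt/Penk/Vit/Scara5 cells held 0.916 and 0.708 Ace UMIs per 10,000, and 103 of 331 and 305 of 1107 of them had an Ace UMI (31.1% and 27.6%, intervals 26.2% to 36.4% and 24.9% to 30.3%). These cells were 13.0% and 7.72% of each library and carried 74.8% and 62.9% of all its Ace UMIs. Crypt cells held 0.0833 and 0.0494, and villus cells 0.0485 and 0.0435 Ace UMIs per 10,000. The crypt and villus means differed by less than the SD of the crypt level between libraries, although both crypt levels lay above both villus levels.

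Ace UMIs were rare in subepithelial cells. None of 285 Sox6 cells of library 1 had an Ace UMI, which allows a share of cells with a UMI of up to 1.05% (3 counts), and 39 of 2699 had one in library 2 (1.44%, 0.0217 UMIs per 10,000). Of the Adamts18-positive cells, 0 of 18 and 1 of 178 had an Ace UMI. In the Fibin type it was 0 of 100 and 4 of 697 cells. Beside these stands 1 of 65 immune-like cells of library 2 (1.54%, interval 0.0389% to 8.28%), and 1 of 120 glia-like cells (0.833%, interval 0.0211% to 4.56%). The library 2 shares of subepithelial, Fibin type, crypt (3.23%) and villus cells (1.68%) lie within both intervals, each of which rests on 1 cell with Ace. The crypt share of library 1 (5.97%) lies above the glia-like interval. That interval is of library 2, and its cells are shallower (median 5131 against 8702 UMIs). Ace was thus 18.9-fold and 16.3-fold higher in Inmt/Penk/Vit/Scara5 cells than in villus cells (mean log2 ratio 4.13 ± 0.15, SD, n = 2) and 11.0-fold and 14.3-fold higher than in crypt cells. Against subepithelial cells it was at least 93.1-fold higher in library 1, where the floor of 3 UMIs over the group stands for the count of 0, and 32.5-fold higher in library 2. Thinned to 2000 UMIs, 18.3% and 10.3% of the Inmt/Penk/Vit/Scara5 cells still had Ace, against 1.68% and 1.08% of crypt cells.

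The level of Ace followed the number of gate genes, also below the threshold of 3. Among all cells without Sox6, Ace was found in 2.22% and 1.30% of cells with none of the 4 genes, 5.19% and 2.67% with 1 and 9.51% and 6.76% with 2, the last step outside the gate. Just inside it, with 3 genes, it was found in 20.8% and 18.6%, and with all 4 in 49.6% and 42.7%. The level at the last step was 1.81 and 1.20 UMIs per 10,000. Agt had no such climb: it was found in 18.6% and 13.5% of cells with none of the 4 genes and in 5.04% and 4.61% of cells with all 4. The median depth rose from 7483.5 to 10409 and from 5931 to 8310 UMIs along the steps, and with cells thinned to 2000 UMIs the Ace share went from 0.736% to 31.4% and from 0.575% to 17.1%.

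Within the Inmt/Penk/Vit/Scara5 gate, cells with Ace differed from those without it in other markers. Wt1, a transcription factor gene of mesothelium and its descendants, was found in 30.1% and 37.0% of cells with Ace and in 4.82% and 10.2% of those without. Gdf10 was found in 48.5% and 52.8% against 14.5% and 17.5%, and Pi16 in 36.9% and 47.9% against 22.4% and 21.9%. Dpp4, a membrane peptidase gene of the kinin list, was found in 27.2% and 26.6% against 1.75% and 4.99%. Of the angiotensin list, Enpep was found in 26.2% and 33.1% against 8.77% and 17.7%, and Anpep in 36.9% and 45.9% against 22.4% and 24.9%. Thop1 was found in 15.5% and 9.84% against 5.26% and 7.48%. Ece1 was close in both, and Prcp had no shared direction. The inducible kinin receptor gene Bdkrb1 went the other way, with 10.7% and 10.8% of cells with Ace against 28.5% and 14.7%, and Agtr1a, the angiotensin II receptor, was close in both (44.7% and 42.3% against 40.4% and 37.0%). Cells with and without Ace had median depths of 10233 and 9716 UMIs in library 1 and 8743 and 7851.5 in library 2.

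Endothelial cells are the classic site of Ace, and the sort excluded CD31-positive cells. Only 11 cells, all of library 2, had 3 or more of 7 endothelial markers, and 9 of them had an Ace UMI (81.8%, interval 48.2% to 97.7%). In the Inmt/Penk/Vit/Scara5 gate the 7 endothelial markers summed to 0.0937 and 0.0554 UMIs per 10,000, beside 0.0789 and 0.0876 in the crypt gate. The sum of library 1 was the highest of the 5 gates. Cdh5 was at 0 in both libraries, Tie1 in library 1 only, and the other markers were above 0 in both. None of the cells in the Inmt/Penk/Vit/Scara5 gate was endothelial-like. With cells of other types left out, the mean log2 ratio of Ace over villus cells was 4.16.

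**Figure D2:**
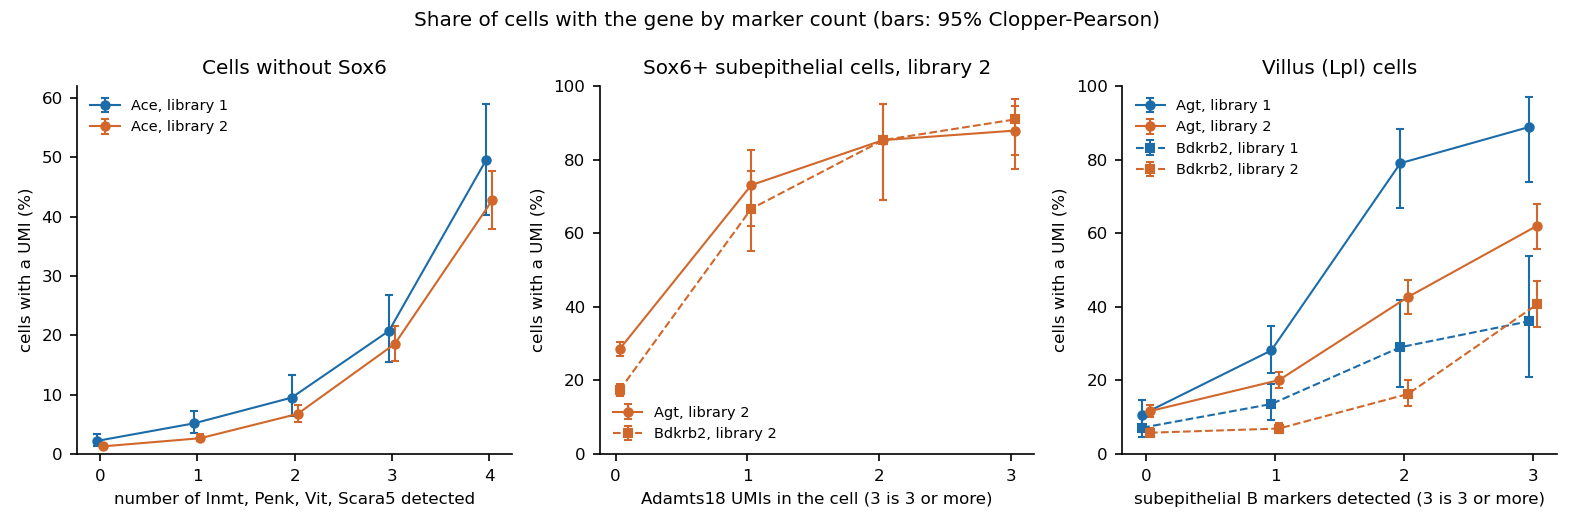
Share of cells with at least 1 UMI (y axis, %, with exact 95% intervals) of Ace by the number of gate genes in cells without Sox6, of Agt and Bdkrb2 by Adamts18 UMIs in Sox6 cells of library 2, and of both by the number of subepithelial B markers in villus cells. Lines join the points of 1 gene and library. Ace climbs from 1.30% to 42.7% in library 2, and Agt from 11.7% to 62.1% over the villus steps of that library.

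Bdkrb2 lies on chromosome 12 of GRCm38 (105563226 to 105595237, plus strand), and among the fibroblast groups its level, too, was highest in Adamts18-positive subepithelial cells. They held 1.69 and 3.48 Bdkrb2 UMIs per 10,000, and 10 of 18 and 141 of 178 had a UMI (55.6% and 79.2%, intervals 30.8% to 78.5% and 72.5% to 84.9%). Sox6 cells without Wif1 and Adamts18 followed with 0.707 and 0.611, then villus cells with 0.319 and 0.277 UMIs per 10,000. These 3 groups kept this order in both libraries with no overlap. In the remaining groups the levels lay between 0.0377 and 0.0952 UMIs per 10,000: Inmt/Penk/Vit/Scara5 cells (0.0907 and 0.0815), crypt cells (0.0733 and 0.0952), Wif1-positive Sox6 cells without Adamts18 (0.0377 and 0.0750) and the Fibin type (0.0480 and 0.0549). Neighbours in this order overlapped between libraries. Of 65 immune-like cells, 1 had a Bdkrb2 UMI (1.54%, interval 0.0389% to 8.28%), and the library 2 shares of these groups, from 3.73% to 6.00%, lie within that interval. Of 120 glia-like cells, 1 had one (0.833%, interval 0.0211% to 4.56%), and the shares in crypt cells (5.29%), Inmt/Penk/Vit/Scara5 cells (5.42%) and Wif1-positive cells (6.00%) lie above the glia-like interval. Immune-like and glia-like cells were shallower, and with cells thinned to 2000 UMIs Bdkrb2 was found in 1.63%, 1.36% and 1.23% of these 3 groups, in 0.980% of glia-like cells and in 0 of 59 immune-like cells.

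Relative to Adamts18-negative Sox6 cells (0.394 and 0.414), Bdkrb2 was 4.29-fold and 8.39-fold higher in Adamts18-positive cells, a mean log2 ratio of 2.58 ± 0.68 (SD, n = 2). It was 21.9-fold and 11.7-fold higher in Wif1-negative than in Wif1-positive Sox6 cells, and the count behind the lower side was 5 UMIs in library 1 and 62 in library 2. Subepithelial cells held 6.58-fold and 6.59-fold more than crypt cells and 1.51-fold and 2.27-fold more than villus cells (mean log2 ratio 0.89 ± 0.41). Thinned to 2000 UMIs, 33.3% and 48.0% of Adamts18-positive cells had Bdkrb2, against 7.55% and 6.70% of Adamts18-negative cells.

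In library 2 both genes also followed the count of Adamts18 itself. There, Sox6 cells with 0, 1, 2 and 3 or more Adamts18 UMIs (2521, 78, 34 and 66 cells) held 0.414, 2.39, 3.74 and 4.57 Bdkrb2 UMIs per 10,000. Agt went from 0.655 to 2.37, 2.58 and 3.90 over the same cells, whose median depths were 8264, 8346, 9122.5 and 8744.5 UMIs. The largest step for both genes in library 2 was thus from 0 to 1 Adamts18 UMI. Library 1 did not show this order past the first step. Its cells with 1, 2 and 3 or more Adamts18 UMIs, 10, 4 and 4 in number, held 4.25, 3.53 and 2.24 Agt and 1.08, 0.705 and 4.26 Bdkrb2 UMIs per 10,000. In villus cells Bdkrb2 rose with the subepithelial B markers as Agt did, from 0.171 and 0.130 UMIs per 10,000 with 0 markers to 1.28 and 1.36 with 3 or more. Without villus cells of 2 or more markers, the alternative named above, the log2 ratio of Bdkrb2 over villus cells became 1.77 ± 0.54. Here too the cells were left out of the villus side only, so the rise follows from their higher Bdkrb2 level.

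Telocyte markers were more frequent in cells with Bdkrb2 in the group examined, though Lama5 and Smoc1 were each found in a minority of them. Among Sox6 cells without Wif1 and Adamts18, Foxl1 was found in 54.8% and 47.0% of cells with Bdkrb2 and 16.2% and 18.6% of those without, Lama5 in 33.3% and 19.5% against 7.21% and 5.10%, and Smoc1 in 45.2% and 29.3% against 18% and 12.4%. Bdkrb1, whose gene begins 7847 bases beyond the end of Bdkrb2 on the same strand, was found in 7.14% and 9.77% of these cells with Bdkrb2 and 1.80% and 4.26% of those without. Over the gates the receptor genes differed: Bdkrb1 was highest in Inmt/Penk/Vit/Scara5 cells (0.417 and 0.278 UMIs per 10,000) and crypt cells (0.408 and 0.321), and lowest in subepithelial cells (0.0262 and 0.0692).

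Substrate and receptor were often found in the same cell. Agt and Bdkrb2 were both detected in 9 of 18 and 119 of 178 Adamts18-positive cells (50.0% and 66.9%), where the product of the single shares is 52.5% and 64.1%. In Sox6 cells without Wif1 and Adamts18, Bdkrb2 was found in 45.3% and 39.8% of cells with Agt and in 14.6% and 13.5% of cells without. In villus cells it was found in 23.3% and 20.2% of cells with Agt and in 9.34% and 7.01% of cells without. Cells with Agt were somewhat deeper in these groups (10687 and 8189 against 10036 and 7368 UMIs; 8816 and 6676 against 7416 and 5728). With all cells thinned to 2000 UMIs, the shares were 16.7% and 21.8% against 11.0% and 7.23% in the Sox6 cells and 9.47% and 12.2% against 3.19% and 3.76% in the villus cells. The direction was the same in both libraries. In library 1 the shares with Agt rested on only 4 of 24 Sox6 cells and 9 of 95 villus cells. In library 2 they rested on 53 of 243 and 48 of 392 cells. Library 1 alone does not settle the direction in the Sox6 cells. In Wif1-positive Sox6 cells without Adamts18, 0 of 8 and 15 of 116 cells with Agt had Bdkrb2. Library 1 also went the other way in smooth muscle-like cells, with 53.3% of 15 cells with Agt and 60.0% of the rest.

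Ace was rare in the groups with most Agt and Bdkrb2. No Sox6 cell of library 1 had it, and in the Inmt/Penk/Vit/Scara5 cells Ace and Agt met in 5 and 11 cells, and Ace and Bdkrb2 in 8 and 25 cells. In that gate Ace and Bdkrb2 met in 2.42% and 2.26% of cells, where the product of the single shares is 1.79% and 1.49%. Of the cells with Bdkrb2 42.1% and 41.7% had Ace, with intervals of 20.3% to 66.5% and 29.1% to 55.1%, and of the cells without Bdkrb2 30.4% and 26.7% had it (25.4% to 35.9% and 24.1% to 29.5%). These intervals overlap. After thinning to 2000 UMIs only 4 and 15 cells with Bdkrb2 were left, of which 25.0% and 6.67% had Ace against 18.3% and 10.3% of those without, so the direction of library 2 did not hold at equal depth. Ace was found in 71.4% of the 7 cells with Agt of library 1 (interval 29.0% to 96.3%) against 30.2% of those without, and in library 2 in 26.8% against 27.6%, so the libraries did not share a direction for Agt. In villus cells Ace was found less often with Agt in both libraries, in 0.581% and 0.245% of cells with Agt (intervals 0.0147% to 3.20% and 0.0297% to 0.881%) against 4.33% and 2.08% of those without (2.63% to 6.68% and 1.59% to 2.67%), and the intervals were apart in library 2.

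**Figure D3:**
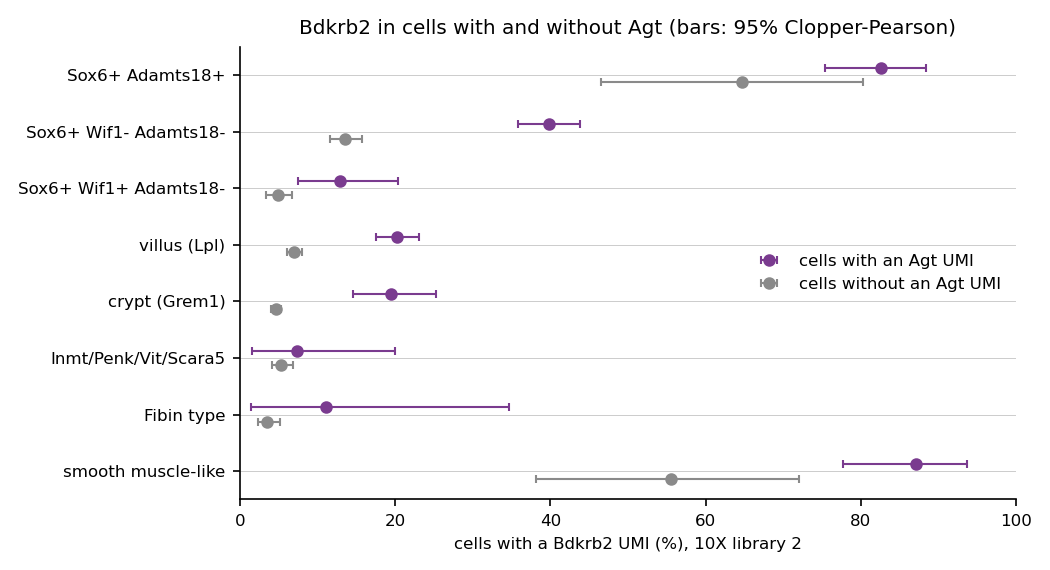
Share of cells with a Bdkrb2 UMI (x axis, %, exact 95% intervals) among cells with and without an Agt UMI in each group (y axis) of 10X library 2. Before thinning, the share is higher in cells with Agt in all 8 groups of that library (after thinning to 2000 UMIs the Fibin type has 0 of 9 against 1.34%), and the intervals are apart in the Wif1- and Adamts18-negative Sox6 cells, the Wif1-positive Sox6 cells, villus, crypt and smooth muscle-like cells.

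Smooth muscle cells, which answer to both angiotensin and kinins, had as much Agt and Bdkrb2 as the Adamts18-positive cells. The 20 and 114 cells with 3 or more of Actg2, Cnn1, Myocd and Lmod1, drawn from all cells and 7 and 42 of them in no gate, held 4.24 and 4.18 Agt and 2.90 and 3.60 Bdkrb2 UMIs per 10,000. Agt was found in 75.0% and 68.4% of them and Bdkrb2 in 55.0% and 77.2%. Relative to the Adamts18-positive cells their level was 1.16-fold and 1.4-fold for Agt and 1.72-fold and 1.04-fold for Bdkrb2. None had an Ace UMI (0 of 20 and 0 of 114, which allow 15.0% and 2.63%). The summed level of all 7 smooth muscle markers was 7.63 and 5.58 UMIs per 10,000 in Adamts18-positive cells, with Cnn1 at 0 in both libraries, and 6.25 and 4.83 in Adamts18-negative cells, and no Adamts18-positive cell was smooth muscle-like. In the villus gate 11 and 31 cells were smooth muscle-like, which are among the cells left out for the ratio of -0.25 given above.

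Other genes had a pattern like that of each member over the 7 disjoint groups. Likeness was the lower of the 2 libraries' Pearson r of the group levels among 1970 genes, given as a description, since the points share libraries and r over 7 points is set by the few high groups. Nearest to Agt were Kcnk3, a potassium channel gene, Tes, Ccdc3, Bdkrb2 and the neurotrophin gene Ntf3, with r from 0.979 to 0.966. Nearest to Bdkrb2 were Npnt, Fam162b, Lama5, Dusp18 and the endothelin receptor gene Ednrb (0.993 to 0.982). Nearest to Ace were Ebf2, Tmeff2, Lrrn4cl, Ces2g and Alkal2 (0.997 to 0.994).

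The other genes of both systems were read from lists of 34 genes, of which 13 were in the table used. Mean natural log values per library and group were compared with limma, the library as a block, in genes found in at least 5% of cells of either side. Between subepithelial cells and the other 4 gates, 72.4% of 1719 genes passed an adjusted p of 0.05 (43.2% higher and 29.2% lower), so a call there says little about a single gene. Of 8 listed genes tested, 6 passed, 1 higher and 5 lower, with a median difference of -0.08 beside 0.02 for all genes tested. Ece1, endothelin-converting enzyme, which also cuts bradykinin, was higher by 1.02 ± 0.04 on the natural log scale (SE, limma adjusted p = 3.89e-07) and was found in 93.7% and 89.8% of subepithelial cells against 57.8% and 50.1% of villus cells. Agtr1a was lower by a difference of -0.21 (limma adjusted p = 5.12e-05), with 0.0295 and 0.104 UMIs per 10,000 in subepithelial cells against 0.564 and 0.519 in villus, 0.533 and 0.521 in crypt and 0.584 and 0.673 in Inmt/Penk/Vit/Scara5 cells. The Fibin type, which had little Agt, was as low, with 0.0480 and 0.146 Agtr1a UMIs per 10,000. Agtr1a was found in 0 of 18 and 8.43% of Adamts18-positive cells, and in villus cells in 34.9% and 28.0% of those with Agt against 31.0% and 24.1% of those without.

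Also lower in subepithelial cells were Enpep, the aminopeptidase that trims angiotensin II (-0.26), the carboxypeptidase gene Cpe (-0.19), Bdkrb1 (-0.10) and Prcp (-0.05, adjusted p = 0.0365, and 0.0747 with no replicate block). For Enpep and Cpe the level outside was led by the Fibin type, with Enpep in 66.0% and 66.7% and Cpe in 58.0% and 53.7% of its cells. Thop1 and Anpep did not pass.

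For the Inmt/Penk/Vit/Scara5 cells against the other 4 gates, 66.2% of 1642 genes passed (31.5% higher and 34.7% lower), and 7 of 9 listed genes did. Agtr1a (0.19), Anpep (0.12), Dpp4 (0.10) and Bdkrb1 (0.07) were higher on the natural log scale, and Ece1 (-0.18), Cpe (-0.14) and Enpep (-0.10) were lower, with limma adjusted p from 5.80e-06 (Dpp4) to 0.00549 (Ece1). The call of Enpep was lost on summed UMIs (log2 difference 0.11, limma adjusted p = 0.444), and so was that of Cpe (-0.27, 0.209). Dpp4 was found in 9.67% and 10.9% of these cells. The gate with most Ace therefore also held the most Agtr1a transcript of the 5 gates, by 0.584 and 0.673 UMIs per 10,000, although crypt and villus cells were close.

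Between Adamts18-positive and Adamts18-negative subepithelial cells, 25.5% of 1712 genes passed (13.6% higher and 11.9% lower), and 2 of 6 listed genes did, both higher. Ece1 was higher by 0.33 ± 0.07 (SE, limma adjusted p = 0.0119; 5.22 and 6.78 against 4.47 and 4.43 UMIs per 10,000), a call lost on summed UMIs (adjusted p = 0.136). Bdkrb1 was higher by 0.07 ± 0.02 (limma adjusted p = 0.0392), a call lost without the filter on low values (0.10), without the block (0.0694) and without a mean trend (0.0601). Between Wif1-positive and Wif1-negative cells, 21.3% of 1673 genes passed (13.1% higher and 8.19% lower), and 0 of 6 listed genes did by limma (1 at an unadjusted p under 0.05). These were Ece1, Agtr1a, Bdkrb1, Anpep, Prcp and Thop1, and Bdkrb1 alone passed on summed UMIs (limma adjusted p = 0.0499). On summed UMIs the called genes turned from mostly higher to mostly lower in both comparisons, from 233 higher and 204 lower to 161 and 208 for Adamts18, and from 219 and 137 to 109 and 149 for Wif1. Ren1, Mme, Cpn1 and Ece2 fell under the filter on low values and were tested only without it, as was Dpp4 outside the comparison of the Inmt/Penk/Vit/Scara5 cells. In that fit 39.3%, 31.9%, 9.05% and 7.86% of 3802 genes passed in the 4 comparisons, in the order given. Dpp4 was lower in subepithelial cells than in the other gates, by a difference of -0.020 (limma adjusted p = 0.0328). Cpn1 and Ece2 were higher in subepithelial cells than in the other gates, both by 0.0081 on the natural log scale (limma adjusted p = 6.22e-05 and 0.0179). Cpn1 was lower in Inmt/Penk/Vit/Scara5 cells by a difference of -0.0024 (0.00976), and Ece2 was higher in Wif1-positive than in Wif1-negative cells by 0.017 (0.0105). Ren1 and Mme passed in none of the 4 comparisons. Ren1, the gene of renin, was found in at most 1.17% of the cells of any gate.

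**Figure D4:**
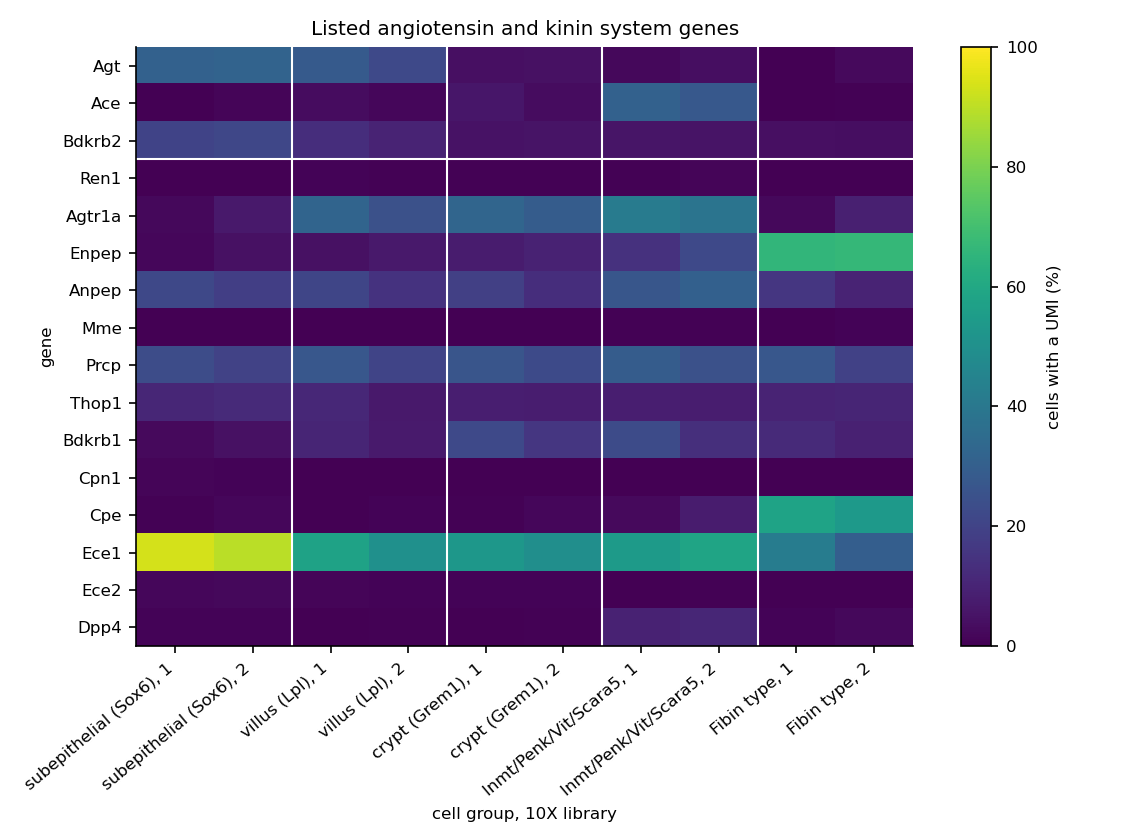
Share of cells with at least 1 UMI (color, %) of the 3 genes (above the white line) and the 13 other listed genes in the table (y axis) in the 5 gates of each 10X library (x axis). Ece1 is brightest in the subepithelial cells (93.7% and 89.8%), Enpep and Cpe in the Fibin type, and Agtr1a is dim in the subepithelial cells (2.11% and 6.82%).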

How the data were processed

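The authors aligned 10X reads to mm10 (GRCm38) with Cell Ranger 3.1.0, used Seurat for cell filters and scaling by total UMI, and deposited natural log values of 1 + UMIs per 10,000 for 10X and, after integration, for 360 and 379 Smartseq2 cells. The Smartseq2 values are corrected (25.6% below 0) and were not used, and 1 gene row that ends early was left out. UMIs of the 10X cells were recovered: 100% of values were whole multiples of the smallest in the cell (tolerance 0.01). Of each library's UMIs, 23.6% and 22.6% lay in genes of this table, and levels are per total UMI. The members and lists were chosen with earlier results of these data known. Genes named are the 3 members, the listed pathway genes and the 5 genes most like each member; markers named within a gate are from the marker lists. One further gene of these lists is not reported here and is not among the 34 counted. No cells were removed as doublets. Cells of another type had 3 or more of its markers. Shares carry exact 95% Clopper-Pearson intervals, which, like limits from a count of 0 (3 counts), cover counting error only. Cells were thinned to 2000 UMIs (seed 7), shallower cells left out. Means per library and gate, of at least 10 cells, were tested with limma 3.58.1 (R 4.3.3; mean trend, library block, Benjamini-Hochberg adjustment); p-values measure only the spread between these libraries, and gates were drawn on the same cells. The library block comes from the design, in which every group is drawn from each library. In simulated data with 200 genes changed by 0.3, limma recovered 96.0%, 94.0%, 85.5% and 90.5% for the comparisons in the order of the text, with 5.88%, 2.08%, 6.56% and 2.16% of calls false. The natural log differences given for listed genes other than Ece1 were all smaller than 0.3, so these rates do not apply to them. Alternatives were thinning, stricter gates, no filter, no block, no mean trend, summed UMIs (pseudocount 0.1), and leaving out a library, cells of other types or the deepest 5% of cells. Coordinates are of GENCODE M21. Cell Ranger counts reads of this 3' chemistry by strand, which bears on Ace and its antisense gene Gm11651. Scripts ran on Python 3.11.15 with scipy 1.17.1, pandas 2.3.3, numpy 2.4.6 and, for figures, matplotlib 3.10.9.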

Additional observations from a re-analysis of the deposited data

How the results depend on the processing

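The depth of the cells limits shares more than levels, and 2 libraries allow no test of a library on its own: with 1 left out, the fit across genes has no residual degrees of freedom. Without 1 library, the log2 ratio of Agt in subepithelial over villus cells was -0.68 to 0.052, so its sign rests on which library is kept, and that of Bdkrb2 was 0.59 to 1.18. Ace in Inmt/Penk/Vit/Scara5 over villus cells gave 4.02 to 4.24, Adamts18-positive over Adamts18-negative cells 2.19 to 2.5 for Agt and 2.1 to 3.07 for Bdkrb2, and Wif1-positive over Wif1-negative cells -3.29 to -2.28 and -4.45 to -3.54. As differences of mean natural log values, another scale, these 7 contrasts were 0.010, 0.13, 0.33, 0.94, 0.77, -0.44 and -0.33 in the same order. Stricter gates gave 3.74 for Ace. Leaving out villus cells with 2 or more subepithelial B markers, chosen after the data were seen, gave 0.64 for Agt and 1.77 for Bdkrb2. This filter was applied to the villus side only, and both shifts follow from the higher levels of the cells left out. Of 30 alternatives that kept both libraries and the log2 scale, 27 moved these 7 ratios by less than the spread between libraries. The 3 others are those just given, and the cause of the Ace shift was not tested. Leaving out 1 of 2 libraries cannot move a mean by more than that spread and says nothing of stability. With no replicate block, 1145, 999, 361 and 270 genes were called where 1245, 1087, 437 and 356 were called with it, and all 20 alternatives for these counts stayed within 1.5 times. With no filter 3802 genes were tested, and the share called fell from 72.4%, 66.2%, 25.5% and 21.3% to 39.3%, 31.9%, 9.05% and 7.86%. On summed UMIs the calls between Adamts18-positive and Adamts18-negative cells went from 233 higher and 204 lower to 161 higher and 208 lower, with no filter to 169 and 175, and on summed UMIs those between Wif1-positive and Wif1-negative cells went from 219 higher and 137 lower to 109 higher and 149 lower.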

Other observations

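The cells that no gate took held both Agt and Bdkrb2. Agt was found in 17 of 199 and 90 of 1305 of them and Bdkrb2 in 24 and 94, and both were found in 9 and 48 cells. Bdkrb2 was found in 52.9% and 53.3% of the ungated cells with Agt and in 8.24% and 3.79% of those without, with median depths of 6909 and 5953 against 4246 and 4272 UMIs. Of the ungated cells 7 and 42 were smooth muscle-like, and their part in this pairing was not tested. Ungated cells of library 2 had an Ace UMI in 2.22%, and 7 of them were endothelial-like.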
